A study of Mus musculus with 12 samples.

Results

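Spleens of mice that received busulfan followed by transfer of small intestinal content from control donors (B+Con-FMT) were compared with spleens of mice that received no busulfan and saline by mouth (Con-sa). The members were chosen by the agent given in the sample labels, which put 3 mice in each of these 2 groups, 6 of the 12 mice of the series, and the comparison was read over the 12427 genes (of 18221 listed) that reached an RPKM of 1 in 3 or more of the 6 mice. RPKM is the number of reads of a transcript scaled to its length and to all mapped reads of the mouse. All mice were males of the outbred ICR stock, 3 weeks old when dosing began. In both groups the mice were dosed by mouth once daily for 2 weeks and killed at 8 weeks of age. Busulfan, a DNA-alkylating drug used to ablate bone marrow, was given to the B+Con-FMT mice as a single injection of 40 mg/kg. The transferred material was pooled from the small intestines of donor mice dosed with water. Whether Con-sa mice received an injection of vehicle is not given in the sources used here. The other groups were B-sa (the same dose of busulfan, then saline) and B+A10-FMT (busulfan, then content from donors given alginate oligosaccharide at 10 mg/kg). Because busulfan and the transfer were both present in B+Con-FMT and both absent from Con-sa, their contributions to a difference between these groups cannot be told apart, and the B-sa values are set beside it for that reason.

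The spleen filters blood and holds lymphoid tissue. Its red pulp contains macrophages that take up old red cells, a sinusoidal endothelium and, in mice, sites of blood cell formation. Its white pulp contains T cell zones and B cell follicles, bordered by a marginal zone with specialized macrophages and B cells. Heat shock proteins are chaperones that assist protein folding, and many of their genes are activated together by heat shock factors when unfolded proteins accumulate. Natural killer (NK) cells are cytotoxic lymphocytes that recognize targets through germline-encoded receptors, many of them of the lectin-like Klr family.

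In the 6 spleens, the number of mapped reads was estimated at 14600000 to 15200000 from the spacing of the lowest RPKM values, and Pearson's r across genes between 2 mice was 0.986 to 0.995 within a group and 0.978 to 0.990 between the groups. The markers of splenic lymphocytes were present, with Cd79a at 669, 714 and 745 RPKM in Con-sa and 624, 639.6 and 593 RPKM in B+Con-FMT. Some markers of neighbouring tissues differed between the groups. The summed RPKM of 43 listed genes of the exocrine and endocrine pancreas was 4351, 9863 and 1830 in Con-sa and 18482, 17303 and 11486 in B+Con-FMT. Of the 35 of them that were tested, 27 were higher in B+Con-FMT with no overlap between the mice, against 10.6% of all genes tested. A single one of the 35, Ins1, passed the test (log2 fold change 1.67 ± 0.33 (SE), adjusted p = 0.0159), and the median of the list was 1.81. Ins1 was at 0.31, 0.30 and 0.00 RPKM in Con-sa and 3.57, 1.34 and 4.12 RPKM in B+Con-FMT and passed the filter through B+Con-FMT alone. Of the 31 pancreatic genes that reached 1 RPKM in all 6 mice, limma called 0 (under the filter used here, 4 of 35 were higher and 0 lower at an unadjusted p under 0.05). The summed level of 22 listed adipocyte genes was 487 to 695 RPKM in Con-sa and 303 to 454 RPKM in B+Con-FMT, that of 26 listed kidney genes 315 to 404 and 226 to 292 RPKM, and that of 20 listed mesothelial genes 184 to 228 and 162 to 177 RPKM. Of the 18 mesothelial genes tested, 8 were higher and 10 lower, with a median log2 fold change of -0.07 (all genes: -0.04). Lower values without overlap were found in 2 of the 18, against 23.8% of all genes. Of the genes tested, 3 of 18 adipocyte genes (Pnpla2, Scd1 and Cd36, the last also on the dendritic cell list), 1 of 9 kidney genes (Slc34a1) and 1 of 18 mesothelial genes (Dpp4) passed the test, all of them lower. Of all genes 6.82% were called lower, and the mesothelial share was near that. When any single mouse was left out, the counts were 0 to 2, 0 to 4 and 0, the adipocyte count being 0 without B+Con-FMT replicate 1 or 3, and Slc34a1 was not among the 6 kidney genes that reached 1 RPKM in all 6 mice, of which 0 were called. The part of these tissues in the results was not tested, except that the pancreatic level of each mouse was also entered in the fit as a covariate.

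Values on the log2(RPKM + 1) scale were compared by limma, with all 12 mice fitted together, and a gene was called at a Benjamini-Hochberg adjusted p under 0.05. Fold changes on this scale understate the change of genes with low RPKM. Between B+Con-FMT and Con-sa, 1142 of 12427 genes were called, 295 higher (2.37% of the genes tested) and 847 lower (6.82%) in B+Con-FMT. At an unadjusted p under 0.05 in limma, 3441 of the 12427 genes differed in either direction. The list counts at that p are to be read beside this number. Most differences were small, the median size of the log2 fold change of a called gene being 0.32, and 37 called genes changed by at least 1 on the log2 scale, 13 of them higher and 24 lower. In 1136 of the 1142 genes the 3 mice of one group did not overlap with the 3 mice of the other. Across the 12427 genes tested, every B+Con-FMT mouse lay above every Con-sa mouse in 10.6% and below every Con-sa mouse in 23.8%. The test picks genes whose groups lie far apart for their spread, so the lack of overlap in called genes is no separate result. The preponderance of lower calls depended on the scaling. The median log2 fold change of all genes was -0.04 with the deposited RPKM and 0.01 after median-of-ratios scaling, which gave 644 higher and 509 lower calls. The count also depended on single mice, falling to 337 without Con-sa replicate 1, 395 without Con-sa replicate 2, 665 without Con-sa replicate 3, and to 393, 544 and 607 without B+Con-FMT replicates 1, 2 and 3. For single genes, an exact permutation test of 3 against 3 mice cannot give a p below 0.1, so the adjusted p-values below rest on the spread pooled across genes and mice.

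**Figure D1:**
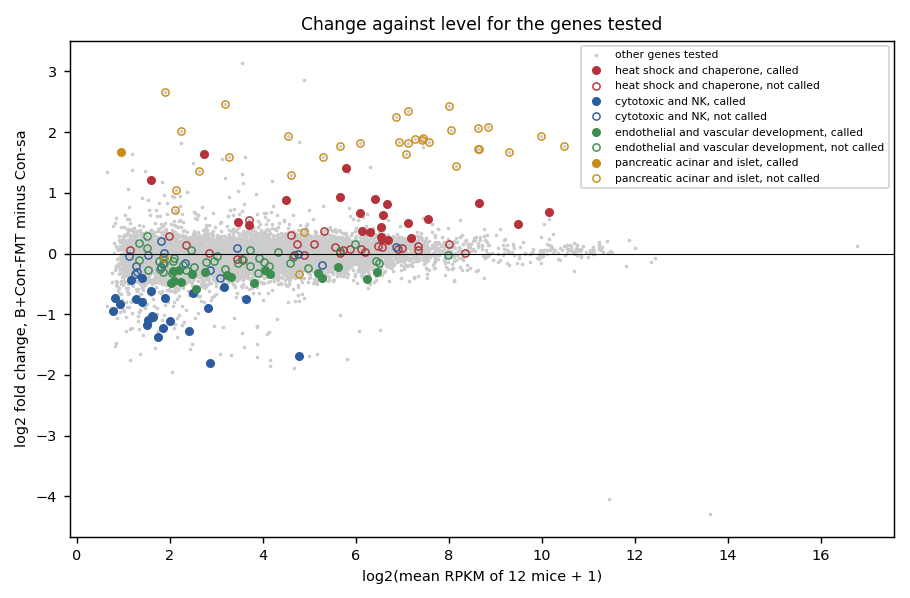
Log2 fold change (B+Con-FMT minus Con-sa, vertical axis) against log2(mean RPKM of the 12 mice + 1) for each of the 12427 genes tested (grey), with 4 gene lists in colour, filled where called and open where not. The 23 called heat shock genes all lie above 0, the 23 called NK genes and 18 called endothelial genes all lie below 0, and 33 of 35 pancreatic genes lie above 0 with 1 of them called.

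The clearest increase in B+Con-FMT spleens was in genes of the heat shock response. Of 50 heat shock and chaperone genes tested with limma, 23 rose and 0 fell, with a median log2 fold change of 0.25 (all genes: -0.04). At an unadjusted p under 0.05, 30 were higher and 0 lower. Among the largest changes was that of Hsph1 (chr5:149616843-149636498, GRCm38), which encodes an Hsp110 protein that recharges Hsp70 with ATP. Its level was 42.0, 38.4 and 35.2 RPKM in Con-sa and 114, 113 and 86.8 RPKM in B+Con-FMT, and every B+Con-FMT mouse was above every Con-sa mouse (log2 fold change 1.41 ± 0.21 (SE), adjusted p = 0.00659). Hspa1b, a stress-inducible Hsp70 gene, was at 3.58, 3.81 and 2.94 RPKM in Con-sa and 13.1, 19.7 and 8.13 RPKM in B+Con-FMT (1.65 ± 0.32 (SE), adjusted p = 0.0185). The mice did not overlap, although the B+Con-FMT mice differed among themselves by more than the whole range of Con-sa. Its neighbour Hspa1a was at 1.58, 1.18 and 1.40 RPKM in Con-sa and 4.79, 7.06 and 2.62 RPKM in B+Con-FMT (1.22 ± 0.30 (SE), adjusted p = 0.0329). The call was lost in 7 of 18 other settings for Hspa1a and in 4 of 18 for Hspa1b. Hspa1a and Hspa1b are near-identical copies, so the division of reads between them is uncertain.

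Promoter sequence is shown for 4 of the increased genes because heat shock factors bind inverted repeats of a 5-base unit, and it allows a reader to see where such repeats lie. The windows run from 250 bases before to 50 bases after an annotated start, are taken from RefSeq on GRCm38.p6 and are written 5′ to 3′ on the strand of the gene. Capitals mark matches to the 13-letter element GAANNTTCNNGAA on either strand in the first 3 windows, and to the 8-letter element GAANNTTC in the window of Hspa1b.
Hsph1 (chr5:149636287-149636586, minus strand): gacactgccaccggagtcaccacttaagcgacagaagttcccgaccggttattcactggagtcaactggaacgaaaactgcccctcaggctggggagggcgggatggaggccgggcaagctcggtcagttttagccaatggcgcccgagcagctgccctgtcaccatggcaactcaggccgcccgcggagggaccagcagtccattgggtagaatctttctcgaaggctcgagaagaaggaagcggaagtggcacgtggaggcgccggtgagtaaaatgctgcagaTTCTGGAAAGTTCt
Chordc1 (chr9:18292017-18292316, plus strand): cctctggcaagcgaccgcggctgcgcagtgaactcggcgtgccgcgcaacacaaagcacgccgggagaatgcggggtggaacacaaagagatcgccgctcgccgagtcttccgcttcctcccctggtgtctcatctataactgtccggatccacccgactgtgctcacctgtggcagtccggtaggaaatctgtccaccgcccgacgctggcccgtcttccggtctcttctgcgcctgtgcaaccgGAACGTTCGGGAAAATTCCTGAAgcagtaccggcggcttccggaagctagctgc
Hspe1 (chr1:55087898-55088197, plus strand): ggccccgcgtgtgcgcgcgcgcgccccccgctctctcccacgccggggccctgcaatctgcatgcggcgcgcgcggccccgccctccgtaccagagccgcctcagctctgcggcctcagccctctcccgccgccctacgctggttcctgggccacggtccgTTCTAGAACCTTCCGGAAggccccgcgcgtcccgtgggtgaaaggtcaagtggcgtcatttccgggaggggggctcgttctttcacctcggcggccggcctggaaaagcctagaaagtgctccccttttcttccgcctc
Hspa1b (chr17:34959189-34959488, minus strand): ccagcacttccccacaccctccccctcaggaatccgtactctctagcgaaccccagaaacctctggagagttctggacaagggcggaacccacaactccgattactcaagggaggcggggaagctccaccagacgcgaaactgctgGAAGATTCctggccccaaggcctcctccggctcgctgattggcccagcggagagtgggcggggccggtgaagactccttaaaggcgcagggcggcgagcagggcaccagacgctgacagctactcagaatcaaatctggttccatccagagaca
The element lay at bases 287 to 299 of the window of Hsph1. In Chordc1 3 overlapping matches covered bases 247 to 269, and in Hspe1 2 overlapping matches covered bases 162 to 179. The window of Hspe1 shares 285 bases with that of Hspd1, which is transcribed in the opposite direction. The 13-letter element was found in 198 of 32851 promoters in the table (0.603%) and in 52 of 9931 tested genes with a promoter there (0.524%). Promoters were listed for 41 of the 50 heat shock genes, and it was found in 4 of the 19 that were called (Hsph1, Chordc1, Hspe1 and Hspd1) and in 1 of the 22 that were not (Dnajb6). The shorter elements GAANNTTC or TTCNNGAA, each of which reads the same on both strands and is contained in the longer one, were found in 15.1% of all promoters, in 10 of the 19 called genes and in 7 of the 22 others. These are matches of letters in a fixed window, and binding was not measured.

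The increase extended from the stress-inducible genes to abundant cytosolic chaperones and their partners. Hsp90aa1, the inducible Hsp90 gene, was at 335, 312 and 327 RPKM in Con-sa and 652, 553 and 547 RPKM in B+Con-FMT, with all B+Con-FMT mice above all Con-sa mice (0.84 ± 0.08 (SE), adjusted p = 0.000319). Hsp90ab1, the constitutive Hsp90 gene, was at 649, 679 and 631 RPKM in Con-sa and 955, 906 and 896 RPKM in B+Con-FMT (0.49 ± 0.05 (SE), adjusted p = 0.000387). Hspa8, the constitutive Hsp70 gene and the chaperone gene of highest RPKM in these spleens, was at 1006, 1056 and 905 RPKM in Con-sa and 1649.5, 1482 and 1655 RPKM in B+Con-FMT (0.69 ± 0.10 (SE), adjusted p = 0.004). The groups did not overlap for either of these constitutive genes. Dnaja1, a J-domain partner of Hsp70, was at 73.6, 74.1 and 70.5 RPKM in Con-sa and 157, 144 and 111 RPKM in B+Con-FMT (log2 fold change 0.89), and Chordc1, an Hsp90 co-chaperone whose promoter is shown above, was at 43.0, 40.5 and 36.9 RPKM in Con-sa and 88.3, 78.0 and 66.2 RPKM in B+Con-FMT (log2 fold change 0.93). Neither gene had overlapping groups, and their adjusted p-values were 0.00984 and 0.00459.

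Further members of the list, named here after their values were seen, act in folding in the cytosol or mitochondria. Stip1, which passes clients from Hsp70 to Hsp90, was at 86.7, 83.1 and 83.5 RPKM in Con-sa and 152, 153 and 145 RPKM in B+Con-FMT (0.82 ± 0.07 (SE)), with the smallest adjusted p of the list (0.000174). The mitochondrial chaperonin gene Hspd1 was at 124, 122 and 117 RPKM in Con-sa and 178, 173 and 164 RPKM in B+Con-FMT (adjusted p = 0.000714), and its co-chaperonin Hspe1, which is transcribed from the shared promoter shown above, was at 168, 156 and 162 RPKM in Con-sa and 265, 226 and 236 RPKM in B+Con-FMT (adjusted p = 0.00217). The mice of the groups did not overlap for any of these 3 genes. Of 8 subunits of the cytosolic chaperonin (Tcp1 and Cct genes), 5 rose, and the log2 fold changes of the 8 were 0.05 to 0.36. The other genes that rose were Hspa4l, Bag3, Ahsa1, Ahsa2, Fkbp4, Ptges3 and St13, which encode an Hsp110 relative and co-chaperones of Hsp70 or Hsp90. In contrast, none of 5 chaperone genes of the endoplasmic reticulum (Hspa5, Hsp90b1, Dnajb9, Dnajb11 and Dnajc3) passed the test, with log2 fold changes of -0.02 to 0.16. The transcripts of the heat shock factors Hsf1 and Hsf2 did not pass the test either (log2 fold changes 0.15 and 0.14, adjusted p = 0.152 and 0.418).

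The B-sa mice received busulfan without the transfer. Hsph1 was at 34.0, 33.7 and 39.5 RPKM in the B-sa mice, and its log2 fold change was -0.11 against Con-sa (adjusted p = 0.763), whereas B+Con-FMT was higher than B-sa by 1.51 (adjusted p = 0.0158). Over the list, 2 genes were called up and 1 down when B-sa was compared with Con-sa (all genes: 4.76% up and 10% down), with 9 higher and 1 lower at an unadjusted p under 0.05, and 15 up and 0 down when B+Con-FMT was compared with B-sa (all genes: 0.644% up and 0.217% down). These comparisons share the Con-sa or the B+Con-FMT mice with the one above. In B+A10-FMT mice Hsph1 was at 49.0, 35.9 and 24.5 RPKM. The pancreatic share of the summed RPKM lay between 1.59% and 2.51% in B+Con-FMT and between 0.26% and 1.41% in Con-sa. It lay between 0.09% and 0.64% in B-sa and between 0.09% and 2.02% in B+A10-FMT. Between B+Con-FMT and Con-sa, 25 genes of the list were called higher and 0 lower with the pancreatic level as a covariate, and 19 to 22 were called higher when any single mouse was left out. The comparison with B-sa was not fitted with this covariate.

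**Figure D2:**
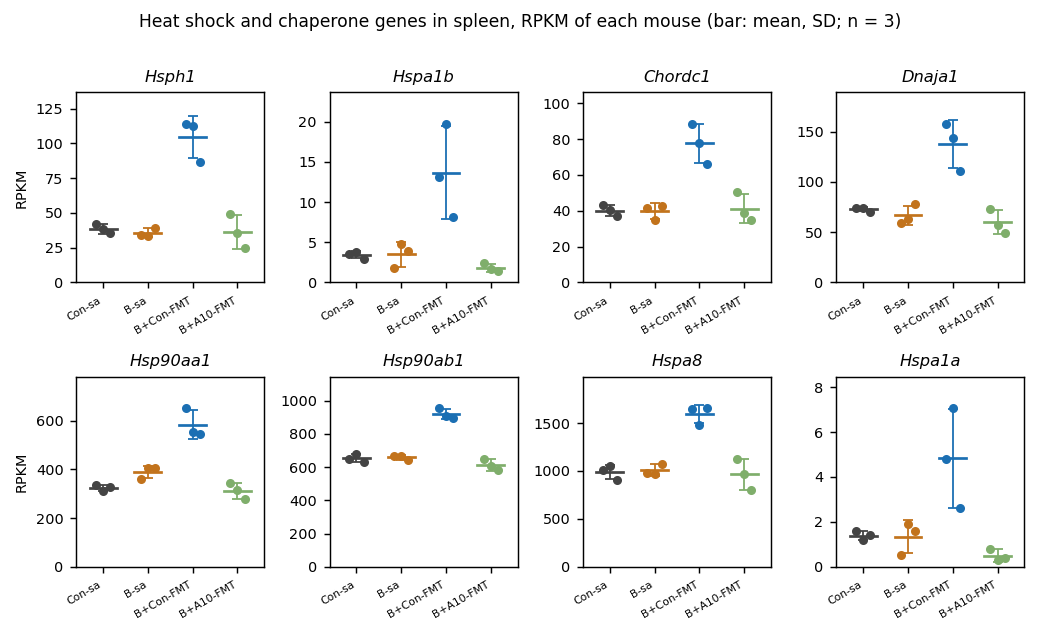
RPKM (vertical axes, from 0) of 8 heat shock and chaperone genes in each mouse of the 4 groups, with the mean and SD (n = 3). In each panel the 3 B+Con-FMT mice lie above the mice of the other 3 groups, as for Hsph1 (86.8 to 114 RPKM against 24.5 to 49.0 RPKM).

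Among the lower genes, those of NK cells stood out. Of 39 tested genes of cytotoxic lymphocytes and NK cells, 23 fell and 0 rose, the median log2 fold change being -0.62, and 27 of 39 had non-overlapping lower values in B+Con-FMT, against 23.8% of all genes tested. At an unadjusted p under 0.05 in limma, 26 were lower and 0 higher. In whole spleen, fewer cells of a type and less RNA per cell cannot be told apart. Ncr1 (chr7:4337715-4345184), which encodes the activating receptor NKp46 carried by NK cells, was at 12.7, 13.3 and 12.6 RPKM in Con-sa and 3.15, 2.51 and 3.29 RPKM in B+Con-FMT, so that the highest B+Con-FMT mouse was far below the lowest control (-1.81 ± 0.17 (SE), adjusted p = 0.000319). Gzma, the gene of the cytotoxic protease granzyme A, was at 50.8, 55.5 and 47.2 RPKM in Con-sa and 9.84, 20.6 and 17.2 RPKM in B+Con-FMT (-1.68 ± 0.28 (SE), adjusted p = 0.0106), again without overlap.

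Most of the Klr genes, which lie side by side on chromosome 6, were lower. Of 20 tested, 16 were called lower, and these lie between positions 128609227 and 130386874 of GRCm38. Klra4, a Ly49 receptor gene, was at 5.74, 5.21 and 4.44 RPKM in Con-sa and 1.47, 1.20 and 1.44 RPKM in B+Con-FMT (-1.37 ± 0.18 (SE), adjusted p = 0.00217), Klra9 at 7.46, 7.66 and 8.54 RPKM in Con-sa and 3.24, 1.84 and 3.07 RPKM in B+Con-FMT (log2 fold change -1.28) and Klra7 at 4.44, 5.36 and 5.27 RPKM in Con-sa and 1.27, 1.83 and 1.68 RPKM in B+Con-FMT (log2 fold change -1.22). No Ly49 value of a B+Con-FMT mouse reached the lowest control in these 3 genes. All 7 Ly49 genes tested were called lower, but they are close copies of each other and differ between mouse strains, so that the split of reads between them is uncertain in outbred mice. The receptor genes Klrb1c (which encodes NK1.1), Klrk1 (which encodes NKG2D), Klrd1, Klre1 and Klri2 were also called lower. Eomes, a transcription factor of NK cells, was at 3.67, 4.25 and 3.92 RPKM in Con-sa and 1.92, 2.07 and 1.98 RPKM in B+Con-FMT (adjusted p = 0.0018), and S1pr5, a receptor that guides the exit of NK cells from tissues, was at 2.33, 2.10 and 2.57 RPKM in Con-sa and 0.84, 1.54 and 0.67 RPKM in B+Con-FMT (adjusted p = 0.00805). Neither gene overlapped between the groups, and both were named after their values were seen.

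Other genes of the list did not pass the test. The chemokine gene Ccl5, which T cells also transcribe, was at 119, 127 and 110.2 RPKM in Con-sa and 141, 139.6 and 108 RPKM in B+Con-FMT (log2 fold change 0.12, adjusted p = 0.521) and the granule gene Nkg7 at 40.4, 43.2 and 42.3 RPKM in Con-sa and 35.4, 35.9 and 39.3 RPKM in B+Con-FMT (log2 fold change -0.18, adjusted p = 0.116). The groups overlapped for Ccl5 and not for Nkg7. Of 5 granzyme and perforin genes, Gzma alone was called. In B-sa, Ncr1 was at 4.31, 3.99 and 3.91 RPKM (log2 fold change -1.45 against Con-sa, adjusted p = 0.0021) and 24 genes of the list were called lower than in Con-sa (all genes: 10%). Between B+Con-FMT and B-sa, 1 gene of the list, the perforin gene Prf1, was called (all genes: 0.644% higher and 0.217% lower), with 2.76, 2.75 and 2.62 RPKM in B-sa and 4.42, 3.89 and 4.42 RPKM in B+Con-FMT (adjusted p = 0.0377), and for Ncr1 that difference was -0.35 (adjusted p = 0.301). The count in B+Con-FMT versus Con-sa was 19 to 21 when any single mouse was left out, and 14 of the 26 genes of the list that had an RPKM of at least 1 in all 6 mice.

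**Figure D3:**
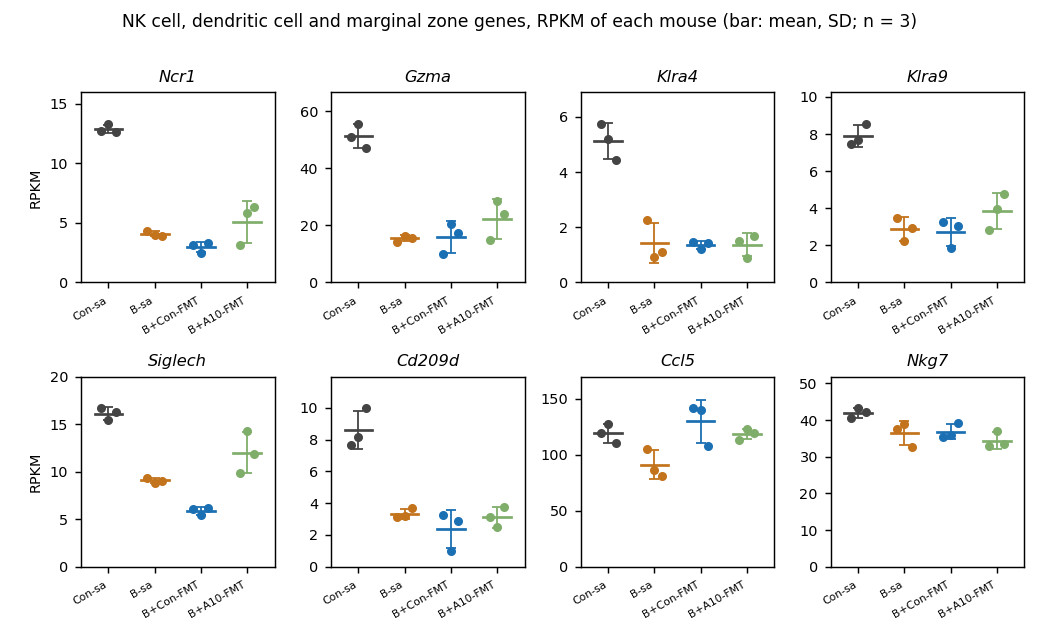
RPKM (vertical axes, from 0) of NK cell genes (Ncr1, Gzma, Klra4, Klra9), of the plasmacytoid dendritic cell gene Siglech, of the marginal zone macrophage gene Cd209d and of the uncalled effector genes Ccl5 and Nkg7 in each mouse, with the mean and SD (n = 3). For Ncr1 the Con-sa mice lie at 12.6 to 13.3 RPKM and the B+Con-FMT mice at 2.51 to 3.29 RPKM, whereas Ccl5 overlaps between these groups.

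Of 36 T cell genes tested, 8 rose (Cd3e, Cd3g, Lck, Lat, Bcl11b, Thy1, Gata3 and Trat1) and 1 fell, with a median log2 fold change of 0.25. Thy1, a surface glycoprotein of T cells and of some fibroblasts, was at 44.6, 39.0 and 50.6 RPKM in Con-sa and 90.5, 69.5 and 68.5 RPKM in B+Con-FMT (0.75 ± 0.13 (SE), adjusted p = 0.00853). The kinase gene Lck, which starts signalling from the T cell receptor, was at 51.9, 53.4 and 60.4 RPKM in Con-sa and 90.2, 75.0 and 79.5 RPKM in B+Con-FMT (0.55 ± 0.10 (SE), adjusted p = 0.00905), and its adaptor gene Lat was at 44.2, 41.3 and 54.6 RPKM in Con-sa and 79.3, 64.5 and 73.2 RPKM in B+Con-FMT (0.63 ± 0.12 (SE), adjusted p = 0.014). The groups did not overlap for any of these 3 genes. Trat1, a gene of a protein associated with the T cell receptor, was at 8.87, 5.88 and 6.13 RPKM in Con-sa and 14.5, 12.2 and 9.65 RPKM in B+Con-FMT (0.72 ± 0.14 (SE), adjusted p = 0.0108), without overlap. Of the 4 CD3 chain genes, 2 were called, and the log2 fold changes of all 4 were 0.35 to 0.42. The genes of the coreceptors, named after their values were seen, did not pass the test. Cd4 was at 41.6, 41.0 and 48.5 RPKM in Con-sa and 55.1, 45.3 and 42.6 RPKM in B+Con-FMT (adjusted p = 0.587) and Cd8a at 15.9, 15.7 and 18.9 RPKM in Con-sa and 21.4, 17.7 and 20.0 RPKM in B+Con-FMT (adjusted p = 0.243), and the values of both genes overlapped between the groups. Between B-sa and Con-sa, 0 T cell genes were called up and 5 down (all genes: 4.76% up and 10% down), and B+Con-FMT exceeded B-sa in 3 (all genes: 0.644%). Thy1 was among them, at 52.2, 40.1 and 40.05 RPKM in B-sa (adjusted p = 0.0225). With the pancreatic level as a covariate 4 T cell genes were called higher and 2 lower, 5 were called higher after removal of trends along transcript length and GC content and 4 without a filter on low values, and 3 were called higher without Con-sa replicate 1, without Con-sa replicate 2 or without B+Con-FMT replicate 1.

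Genes of B cells were lower by small amounts. Of 35 tested, 10 fell (Cd79b, Cd22, Ebf1, Blk, Lyn, Fcrl1, Tnfrsf13b, Bank1, Cd1d1 and Fcmr) and 0 rose (0 higher and 20 lower at an unadjusted p under 0.05 in limma), and the median log2 fold change was -0.20. Cd22, which dampens signalling from the B cell receptor, was at 165, 175 and 170.2 RPKM in Con-sa and 120.0, 131 and 123 RPKM in B+Con-FMT (-0.45 ± 0.09 (SE), adjusted p = 0.0104). The kinase gene Blk was at 84.2, 85.8 and 85.1 RPKM in Con-sa and 65.0, 68.2 and 62.8 RPKM in B+Con-FMT (-0.38 ± 0.06 (SE), adjusted p = 0.00422). For both genes every control exceeded every B+Con-FMT mouse. Cd79b, a signalling chain of the B cell receptor, was at 425, 479 and 442 RPKM in Con-sa and 364, 381 and 363 RPKM in B+Con-FMT (log2 fold change -0.28, adjusted p = 0.0269), whereas its partner Cd79a did not pass the test (log2 fold change -0.20, adjusted p = 0.0733). Between B-sa and Con-sa 17 B cell genes were called down and 1 up (all genes: 10% down and 4.76% up). Between B+Con-FMT and B-sa limma called 0 of them, with 9 higher and 1 lower at an unadjusted p under 0.05. The count of B cell genes lower than in Con-sa was 4 without Con-sa replicate 2, without B+Con-FMT replicate 1 or without B+Con-FMT replicate 3, 5 without Con-sa replicate 1, 6 without B+Con-FMT replicate 2, 15 with the pancreatic covariate and 18 with equal totals outside the globin genes. Of 18 plasma cell genes, 3 fell (Irf4, Sdc1 and Txndc5) and 1 rose (Sec11c), and the genes of antigen presentation by major histocompatibility complex class II gave 4 lower (H2-Ob, Ciita, H2-Aa and H2-Oa) and 1 higher (Cd80) of 18. Ciita, the master regulator of these genes, was at 40.4, 41.1 and 36.7 RPKM in Con-sa and 28.3, 31.9 and 27.0 RPKM in B+Con-FMT (-0.43 ± 0.09 (SE), adjusted p = 0.0141). The class II count of 4 lower was 0 without Con-sa replicate 2, 1 without B+Con-FMT replicate 1 or 3, 2 without Con-sa replicate 3, 7 after removal of trends along length and GC content and 9 with equal totals outside the globin genes, and Cd80 lost its call in 13 of 18 other settings. The plasma cell count of 3 lower was 0 without Con-sa replicate 2 or B+Con-FMT replicate 1 and 1 without Con-sa replicate 1 or B+Con-FMT replicates 2 or 3.

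The called gene with the smallest adjusted p was Siglech (chr7:55768154-55779448), a lectin gene of plasmacytoid dendritic cells, the specialized producers of type I interferon. It was at 16.7, 15.4 and 16.3 RPKM in Con-sa and 6.08, 5.39 and 6.21 RPKM in B+Con-FMT, with a narrow spread in both groups and no overlap (-1.31 ± 0.10 (SE), adjusted p = 7.1e-05). In B-sa it was at 9.38, 8.84 and 9.04 RPKM, between the other groups, below Con-sa (adjusted p = 0.00256) and above B+Con-FMT (adjusted p = 0.0225). Of 28 dendritic cell genes, 8 fell and 0 rose (10 lower and 0 higher at an unadjusted p under 0.05 in limma), with a median log2 fold change of -0.20. The others were Itgax, Cadm1, Clec4a4, Tcf4, Wdfy4, Cd36 and Runx2, of which Tcf4 and Runx2 encode transcription factors of plasmacytoid dendritic cells. When any single mouse was left out 1 to 3 of the 28 were called, 3 when replicate numbers were fitted as a block and 4 with median-of-ratios scaling, and Siglech was called under each of the 18 other settings.

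Some genes of macrophages and monocytes were lower. Cd209d, a lectin gene of the marginal zone, was at 7.68, 8.20 and 9.98 RPKM in Con-sa and 3.26, 1.02 and 2.86 RPKM in B+Con-FMT (-1.57 ± 0.24 (SE), adjusted p = 0.00542), without overlap. Its relatives in the same cluster are similar in sequence, so their reads may be mixed. Of 20 genes of marginal zone macrophages 3 fell (Cd209d, Stab1 and Stab2), of 24 monocyte genes 6 fell (among them Ccr2, Ms4a4c, Klf4, Ace and Plac8) and of 22 genes of iron-recycling macrophages 2 fell (C6 and Mertk), the marginal zone count being 6 without B+Con-FMT replicate 3, with no gene of these lists rising in limma (1 gene, of the iron-recycling list, was higher at an unadjusted p under 0.05). Stab1 and Stab2 are also on the endothelial list and are counted again there, so they are not particular to marginal zone macrophages. The monocyte count was 3 without any one of replicates 1 and 2 of either group. Of the 3 monocyte genes of highest RPKM, Plac8 was called lower and Lyz2 and Ctss were not called. Mean RPKM in Con-sa and B+Con-FMT was 1310 and 1426 for Lyz2 and 279 and 257 for Ctss. The marginal zone genes of highest RPKM were not called either, with means of 152 and 145 for C1qa, 133 and 125 for C1qc and 119 and 117 for C1qb. Ccr2, the receptor by which monocytes leave the marrow, was at 8.83, 8.69 and 9.22 RPKM in Con-sa and 6.02, 5.92 and 6.82 RPKM in B+Con-FMT (-0.45 ± 0.08 (SE), adjusted p = 0.00574). Ace was at 6.16, 6.27 and 6.69 RPKM in Con-sa and 3.41, 3.32 and 3.86 RPKM in B+Con-FMT (log2 fold change -0.70, adjusted p = 0.00239), and the groups did not overlap for either. The share of the iron-recycling list was near that of all genes (6.82%), Mertk lost its call in 10 of 18 other settings, and 1 or 2 genes were called when any single mouse was left out. The most abundant iron genes did not pass the test, among them the ferritin genes Fth1 (log2 fold change 0.02, adjusted p = 0.844) and Ftl1 (log2 fold change 0.07, adjusted p = 0.484). Of 29 genes of the Toll-like receptor pathway 5 fell (Cd180, Tlr7, Ly96, Tlr6 and Tollip) and 0 rose (9 lower and 0 higher at an unadjusted p under 0.05 in limma, against 3441 of the 12427 genes tested in either direction). Of 22 complement genes 5 fell and 0 rose (6 lower and 0 higher at that p), the most certain being Cd55, a surface inhibitor of complement, at 93.1, 98.3 and 96.2 RPKM in Con-sa and 66.8, 61.7 and 63.6 RPKM in B+Con-FMT (-0.57 ± 0.06 (SE), adjusted p = 0.000319).

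Endothelial genes were lower by small amounts. Of 56 tested, 18 fell and 0 rose (28 lower and 1 higher at an unadjusted p under 0.05 in limma), the median log2 fold change being -0.21, and 32 of 56 had non-overlapping lower values, against 23.8% of all genes tested. Ptprb, the vascular endothelial phosphatase VE-PTP, was at 6.35, 5.88 and 5.90 RPKM in Con-sa and 3.53, 3.28 and 4.28 RPKM in B+Con-FMT (-0.59 ± 0.08 (SE), adjusted p = 0.00242). Stab2, a scavenger receptor of sinusoidal endothelium, was at 16.0, 15.6 and 14.2 RPKM in Con-sa and 9.75, 10.8 and 11.3 RPKM in B+Con-FMT (-0.49 ± 0.07 (SE), adjusted p = 0.00301). No B+Con-FMT mouse reached the lowest control for either gene. Of the 5 receptors for vascular endothelial growth factors and angiopoietins, 3 fell, namely Kdr, Flt4 and Tek. Kdr was at 8.94, 8.54 and 8.76 RPKM in Con-sa and 5.46, 6.61 and 8.01 RPKM in B+Con-FMT (-0.35 ± 0.09 (SE), adjusted p = 0.0371), and it was called in 7 of the 18 other settings. The remaining called genes were Pecam1, Cdh5, Eng, Cldn5, Erg, Ets1, Fli1, Plvap, Mmrn2, Heg1, Ephb4, Stab1 and Klf4. Between B-sa and Con-sa 21 endothelial genes were called down and 0 up (all genes: 10% down and 4.76% up), and limma called 0 of them between B+Con-FMT and B-sa (3 higher and 3 lower at an unadjusted p under 0.05). The count of 18 became 12 with the pancreatic covariate, 5 without Con-sa replicate 1 or without B+Con-FMT replicate 1, 7 and 10 without Con-sa replicates 2 and 3, and 9 and 16 without B+Con-FMT replicates 2 and 3.

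Some stromal genes were also lower. Of 56 genes of matrix, fibroblasts and smooth muscle 10 fell and 1 rose, the latter being Thy1, and 45 did not pass the test. Nid1, a linker protein of basement membranes, was at 18.3, 17.8 and 17.9 RPKM in Con-sa and 11.6, 12.6 and 13.8 RPKM in B+Con-FMT (-0.47 ± 0.07 (SE), adjusted p = 0.00271), and Pdgfrb, the receptor of pericytes and fibroblasts, was at 14.9, 13.5 and 18.1 RPKM in Con-sa and 8.44, 11.1 and 12.4 RPKM in B+Con-FMT (-0.51 ± 0.12 (SE), adjusted p = 0.025). In both cases the lowest control exceeded the highest B+Con-FMT mouse. This count was 2 without Con-sa replicate 3 or B+Con-FMT replicate 2, 3 without Con-sa replicate 1 or B+Con-FMT replicate 1, 5 without Con-sa replicate 2, 5 with the pancreatic covariate and 6 with median-of-ratios scaling. Of 24 integrin genes 4 fell (Itga1, Itga2, Itga4 and Itgax), of 18 genes of addressins and selectins 3 fell (among them Jam2 and Pecam1), and of 4 connexin genes 1 fell (Gja1), with none rising in limma (0, 1 and 1 higher at an unadjusted p under 0.05). When any single mouse was left out these counts were 1 to 3, 2 to 3 and 0 to 1. Among 34 genes of white pulp organization 2 rose, the follicular chemokine gene Cxcl13 at 155, 155 and 170.1 RPKM in Con-sa and 259, 195 and 222 RPKM in B+Con-FMT (0.49 ± 0.13 (SE), adjusted p = 0.0469) and the lymphotoxin gene Lta at 12.7, 12.6 and 14.2 RPKM in Con-sa and 16.9, 15.4 and 18.5 RPKM in B+Con-FMT (0.34 ± 0.08 (SE), adjusted p = 0.0221). The groups did not overlap for these 2 genes. Of this list, 0 genes were called higher without Con-sa replicate 1, Con-sa replicate 2 or B+Con-FMT replicate 1, and Cxcl13 lost its call in 10 of 18 other settings.

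**Figure D4:**
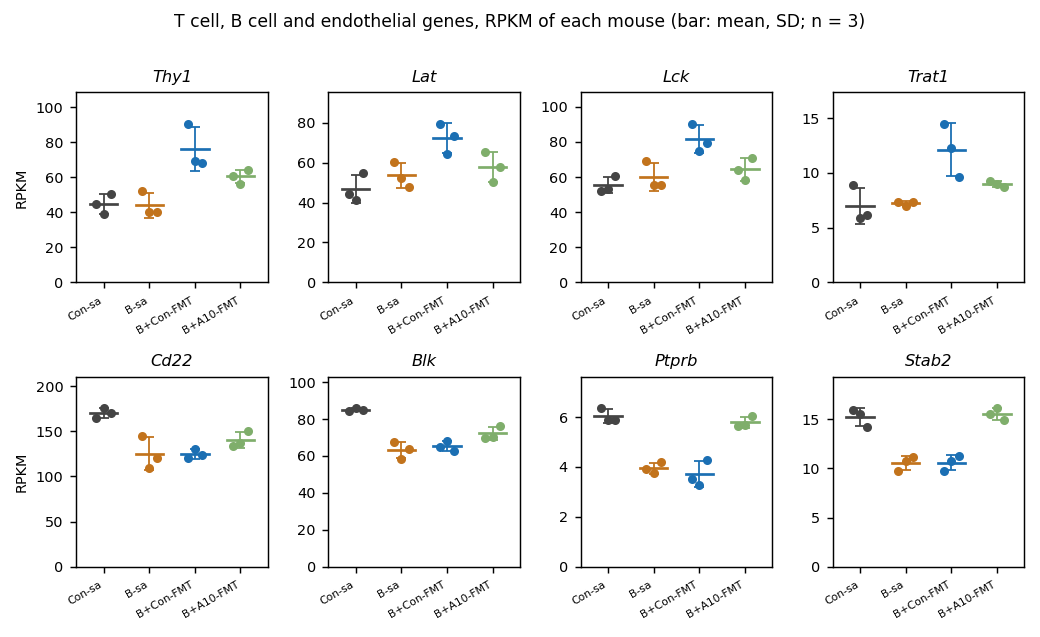
RPKM (vertical axes, from 0) of T cell genes (Thy1, Lat, Lck, Trat1), B cell genes (Cd22, Blk) and endothelial genes (Ptprb, Stab2) in each mouse, with the mean and SD (n = 3). In the T cell panels the B+Con-FMT mice lie above the Con-sa mice (Thy1, 68.5 to 90.5 against 39.0 to 50.6 RPKM), and in the other panels they lie below them.

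Genes known to respond to p53 and to DNA damage changed in a few cases. Cdkn1a, which encodes the cell cycle inhibitor p21, was at 7.09, 7.67 and 9.27 RPKM in Con-sa and 17.4, 13.3 and 20.0 RPKM in B+Con-FMT (0.98 ± 0.17 (SE), adjusted p = 0.00984), and Phlda3 was at 7.47, 5.93 and 7.13 RPKM in Con-sa and 10.9, 10.1 and 12.4 RPKM in B+Con-FMT (0.63 ± 0.11 (SE), adjusted p = 0.00642). Both genes had all B+Con-FMT mice above all controls. Of 33 genes of the p53 pathway 5 rose (Cdkn1a, Phlda3, Fas, Aen and Bax) and 1 fell (Ddit4), with a median log2 fold change of 0.06. Between B-sa and Con-sa 5 of the list were called up and 2 down (all genes: 4.76% up and 10% down). Of 36 genes of DNA crosslink repair, the kind of lesion busulfan makes, 3 rose (among them Rad51c and Fancl) and 1 fell (Fanca). Rad51c was at 6.63, 5.28 and 6.30 RPKM in Con-sa and 9.28, 9.59 and 8.53 RPKM in B+Con-FMT (0.52 ± 0.09 (SE), adjusted p = 0.0073), without overlap. In the Bcl2 family 1 of 21 genes rose (Bax) and 1 fell (Bmf), and among 21 glutathione transferase genes 1 rose (Gstm5) and 1 fell (Gstz1), shares near those of all genes. Bax lost its call in 6, Gstm5 in 7 and Gstz1 in 10 of 18 other settings, and limma called 0 glutathione transferase genes without a filter or with the block (2 higher and 3 lower at an unadjusted p under 0.05 under the design).

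Small increases were seen in some genes of proliferation and of red cell formation. Of 64 cell cycle genes, 7 rose (Ccne1, Ccnd3, Cdc45, Gmnn, Pcna, Birc5 and Uhrf1) and 0 fell against Con-sa (24 higher and 0 lower at an unadjusted p under 0.05 in limma), and in B-sa 41 were called up. Of all genes, 4.76% were called up and 10% down in B-sa against Con-sa. Pcna, the clamp of replicating DNA polymerase, was at 399.7, 369 and 389 RPKM in Con-sa and 431, 438 and 476 RPKM in B+Con-FMT (0.22 ± 0.06 (SE), adjusted p = 0.036) and at 460.4, 498 and 512 RPKM in B-sa. The groups compared did not overlap for Pcna. The count of 7 became 18 with median-of-ratios scaling, 3 with equal totals outside the globin genes, 3 with the block and 0 to 4 when any single mouse was left out. Of 46 erythroid genes 3 rose (Gata1, Car2 and Prdx2) and 0 fell (11 higher and 0 lower at an unadjusted p under 0.05), while 16 were called up in B-sa. When any single mouse was left out 0 or 1 was called, and with the pancreatic covariate 10. Gata1, the master transcription factor of red cell formation, was at 61.8, 55.7 and 66.5 RPKM in Con-sa and 76.2, 71.9 and 83.0 RPKM in B+Con-FMT (0.33 ± 0.08 (SE), adjusted p = 0.026). Of 30 neutrophil genes 0 passed limma's test (1 higher and 1 lower at an unadjusted p under 0.05), with a median log2 fold change of 0.37, whereas 12 were called higher in B-sa. The neutrophil gene S100a8 was at 676, 695 and 648 RPKM in Con-sa and 740.0, 1131 and 985 RPKM in B+Con-FMT (adjusted p = 0.391) and at 1251, 1891 and 1173 RPKM in B-sa. Its B+Con-FMT values lay above the controls, but their spread was wide. Of 9 globin genes 0 passed limma's test (3 higher and 1 lower at an unadjusted p under 0.05, with 4 called up and 2 down in B-sa), 1 of 31 megakaryocyte genes fell (Fli1), and 2 of 24 genes of stem and progenitor cells fell (Kit and Erg), a share near that of all genes. With B+Con-FMT replicate 3 left out 2 genes of the last list were called, and 0 without any other single mouse, with the pancreatic covariate or with only the 2 groups fitted. In the direct comparison of B+Con-FMT with B-sa, 1 cell cycle gene was called lower (38 lower and 1 higher at an unadjusted p under 0.05), and limma called 0 erythroid genes (14 lower and 0 higher at that p) and 0 neutrophil genes (8 lower and 1 higher). Of all genes, 0.217% were called lower in this comparison.

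Of the 19 genes named in the study, 4 passed the test between B+Con-FMT and Con-sa, all lower. Itga4, the integrin chain by which lymphocytes bind vascular adhesion molecules, was at 47.1, 41.0 and 44.0 RPKM in Con-sa and 34.2, 34.5 and 35.1 RPKM in B+Con-FMT (-0.34 ± 0.06 (SE), adjusted p = 0.00575), and it was also lower than in B-sa, at 43.6, 41.7 and 43.5 RPKM (adjusted p = 0.0253). Gja1, the gap junction gene connexin 43, was at 18.4, 18.3 and 17.5 RPKM in Con-sa and 13.3, 14.4 and 15.5 RPKM in B+Con-FMT (log2 fold change -0.31, adjusted p = 0.019). Pecam1, an endothelial adhesion gene, was at 50.3, 50.7 and 53.5 RPKM in Con-sa and 43.9, 42.7 and 45.8 RPKM in B+Con-FMT (log2 fold change -0.22, adjusted p = 0.0339). These 3 genes and Kdr, the fourth, had no overlap between groups. The other 15 did not pass the test. They included the macrophage genes Cd163 (2.74, 1.55 and 3.73 RPKM in Con-sa and 1.32, 1.52 and 2.03 RPKM in B+Con-FMT) and Siglec1 (10.1, 10.2 and 11.2 RPKM in Con-sa and 5.87, 7.52 and 10.8 RPKM in B+Con-FMT), the adhesion gene Vcam1 (113, 115 and 107 RPKM in Con-sa and 94.3, 112 and 119 RPKM in B+Con-FMT) and the addressin gene Madcam1 (13.3, 12.4 and 16.7 RPKM in Con-sa and 21.8, 17.0 and 16.9 RPKM in B+Con-FMT), with adjusted p-values of 0.284, 0.216, 0.768 and 0.142. The groups overlapped for Cd163, Siglec1 and Vcam1. The chemokine gene Ccl21a, its receptor gene Ccr7, Cd27, Itgb1, Ly6c1, Ly6c2, Ngfr and the iron exporter gene Slc40a1 had log2 fold changes of 0.13, 0.02, 0.37, -0.03, -0.20, 0.18, 0.03 and -0.13 (adjusted p of at least 0.127). Ly6c1 and Ly6c2 are near-identical copies. For proliferation and survival, Mki67 was at 174, 149 and 143 RPKM in Con-sa and 135, 136 and 164 RPKM in B+Con-FMT (log2 fold change -0.10, adjusted p = 0.563), Trp53 at 89.6, 91.6 and 94.6 RPKM in Con-sa and 89.1, 85.2 and 90.7 RPKM in B+Con-FMT (-0.06, adjusted p = 0.546) and Bcl2 at 16.9, 16.7 and 16.8 RPKM in Con-sa and 15.7, 13.7 and 11.9 RPKM in B+Con-FMT (-0.28, adjusted p = 0.0792). Of these 3 genes, Bcl2 alone had non-overlapping groups.

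On the log2(RPKM + 1) scale, the largest increase of a single called gene was that of Aass (chr6:23072173-23132986), which encodes the first enzyme of lysine breakdown in mitochondria. It was at 3.04, 1.33 and 0.88 RPKM in Con-sa and 22.7, 19.4 and 23.8 RPKM in B+Con-FMT (3.13 ± 0.57 (SE), adjusted p = 0.0167) and at 13.1, 11.6 and 23.9 RPKM in B-sa. The groups were far apart, although the adjusted p passed the threshold in 15 of 17 other settings and was at most 0.0601 in the others. Gm40892 was at 1.63, 1.49 and 0.54 RPKM in Con-sa and 6.26, 6.02 and 7.66 RPKM in B+Con-FMT (log2 fold change 1.82), Gm4184 at 5.55, 10.7 and 9.96 RPKM in Con-sa and 17.2, 22.4 and 22.4 RPKM in B+Con-FMT (log2 fold change 1.19), and a locus without a symbol (gene identifier 105245449) at 4.15, 3.70 and 3.89 RPKM in Con-sa and 13.8, 13.04 and 13.4 RPKM in B+Con-FMT (log2 fold change 1.55). The genes Gm5771 (log2 fold change 1.64) and Gm10334 (log2 fold change 1.34) belong to the trypsinogen cluster on chromosome 6 and rose with the pancreatic level given above. Both were below 1 RPKM in every Con-sa mouse and passed the filter through B+Con-FMT alone, and Gm5771 lost its call in 9 of 17 other settings. The eosinophil granule genes Prg2 and Prg3 were at 5.76, 10.5 and 4.69 RPKM in Con-sa and 16.6, 12.7 and 19.8 RPKM in B+Con-FMT and at 0.93, 2.50 and 1.0 RPKM in Con-sa and 4.51, 3.90 and 4.79 RPKM in B+Con-FMT, with log2 fold changes of 1.17 and 1.18. Groups did not overlap for any of these genes, which was a condition for naming them and is no separate result. The call was lost in 6 of 18 other settings for Prg2, 6 of 16 for Gm40892 and 5 of 17 for Gm4184.

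Among the lower genes of largest change, LOC108167383 was at 34.96, 26.2 and 41.3 RPKM in Con-sa and 10.7, 7.41 and 8.02 RPKM in B+Con-FMT (-1.85 ± 0.37 (SE), adjusted p = 0.0216). Pianp was at 15.9, 18.7 and 20.6 RPKM in Con-sa and 6.69, 12.4 and 3.43 RPKM in B+Con-FMT (log2 fold change -1.33, adjusted p = 0.0416), with a wide spread in B+Con-FMT. The call was lost in 5 of 17 other settings for LOC108167383 and 7 of 18 for Pianp. Gm4724, Zfp967, Gm14434 and Gm14305, zinc finger genes on distal chromosome 2, had log2 fold changes of -1.76, -1.65, -1.52 and -1.47. Gm14434, for example, was at 2.06, 3.0 and 1.76 RPKM in Con-sa and 0.13, 0.28 and 0.00 RPKM in B+Con-FMT, and these genes are near-identical copies. All 4 were below 1 RPKM in every B+Con-FMT mouse and passed the filter through Con-sa alone, and each was also called without a filter. In the cluster of Trim30 and Trim12 genes on chromosome 7, which is also rich in copies, 4 of 10 genes fell, among them Trim30d at 3.94, 7.38 and 3.17 RPKM in Con-sa and 0.20, 2.03 and 0.85 RPKM in B+Con-FMT (-1.56 ± 0.35 (SE), adjusted p = 0.0268) and Trim30b at 5.21, 8.05 and 4.95 RPKM in Con-sa and 1.42, 2.91 and 2.17 RPKM in B+Con-FMT (log2 fold change -1.16, adjusted p = 0.00659). The groups did not overlap for either, and Trim30d lost its call in 5 of 17 other settings. Of 64 interferon-stimulated genes 1 fell (Gbp3) and of 13 genes of the Ifi200 family 1 fell (Aim2), against 6.82% of all genes, and none rose in limma (2 and 0 higher at an unadjusted p under 0.05). Gbp3 and Aim2 each lost the call in 9 of 18 other settings, and 0 or 1 gene of either list was called when any single mouse was left out. The interferon count of 1 lower became 5 with the pancreatic covariate and 4 with equal totals outside the globin genes. With only the 2 groups fitted, 2 interferon-stimulated genes were called higher and 2 lower, and 4 Ifi200 genes lower.

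The remaining lists held few called genes. Of 77 nuclear genes of the respiratory chain 6 rose and 0 fell, the median log2 fold change being 0.12, and after removal of the trend along transcript length and GC content 0 were called, and with median-of-ratios scaling 17 (26 were higher and 0 lower at an unadjusted p under 0.05 with the deposited values). Cox4i1, a subunit of cytochrome c oxidase, was at 308, 303 and 312 RPKM in Con-sa and 356, 367 and 358 RPKM in B+Con-FMT (0.23 ± 0.05 (SE), adjusted p = 0.0141). Of 82 genes of cytosolic ribosomal proteins 3 rose and 0 fell (9 higher and 1 lower at an unadjusted p under 0.05). They were Rps12, Rps27a and Rps27l, the last a ribosomal paralog known as a target of p53. The share was near that of all genes (2.37%), and after removal of trends along length and GC content 0 were called higher and 2 lower, with the median going from 0.05 to -0.04. With median-of-ratios scaling 8 were called higher, and without Con-sa replicate 2 limma called 0. Among 36 immediate early genes 1 rose (Ier2) and 1 fell (Klf4), among 19 genes of the glucocorticoid and metal response 1 rose (Cdkn1a) and 2 fell (Ddit4 and Errfi1). Errfi1 lost its call in 11 of 18 other settings. Of the glucocorticoid list 0 genes were called lower without replicate 1 or 3 of either group, and of the immediate early list limma called 0 in either direction without any one of the 3 Con-sa mice or without B+Con-FMT replicate 1 (3 higher and 3 lower at an unadjusted p under 0.05 with all mice). Of 21 circadian clock genes 0 passed limma's test (0 higher and 5 lower at an unadjusted p under 0.05).

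**Figure D5:**
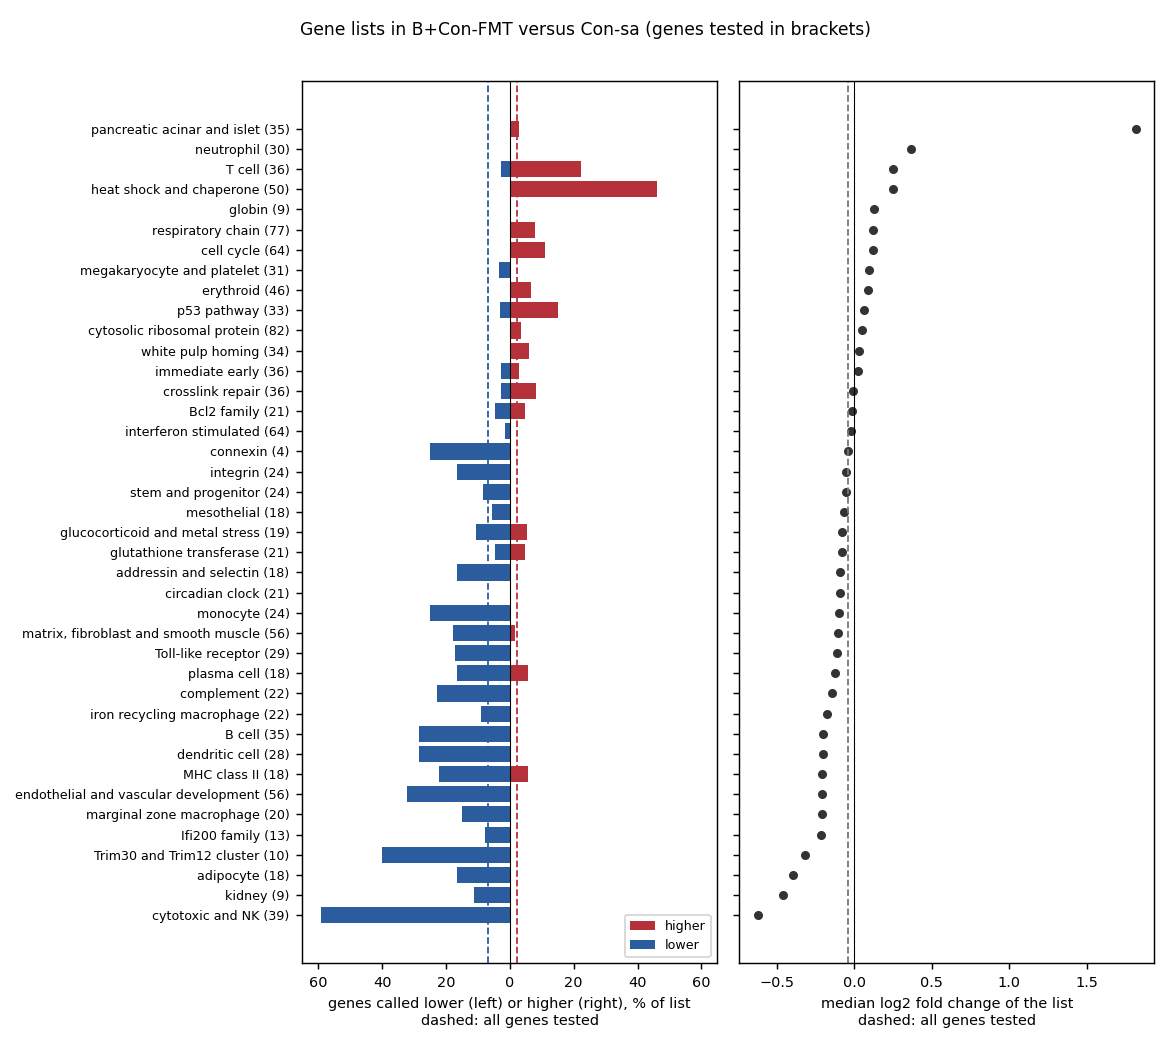
Left, share of the tested genes of each list called higher (red) or lower (blue) in B+Con-FMT versus Con-sa, in percent, with the shares of all genes tested as dashed lines (2.37% and 6.82%). Right, median log2 fold change of each list, with that of all genes as a dashed line (-0.04). The heat shock list (23 of 50 higher) and the list of cytotoxic and NK genes (23 of 39 lower) have the highest shares called in either direction, and the pancreatic list has the highest median (1.81) with 1 gene called.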

How the data were processed

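Spleen RNA was measured in 12 male ICR mice, 3 per group, grouped by the agent given in the sample labels. The authors extracted RNA with TRIzol, enriched polyadenylated RNA with oligo(dT), mapped the reads to reference genes and deposited RPKM for each of 60654 RefSeq transcripts, 1 table per mouse. The paper names SOAPaligner, and the submitters' processing notes name HISAT, Bowtie2 and mm10 without a role. Read counts were not used here. The RPKM were summed per gene, and the 12427 genes that reached 1 RPKM in 3 or more of the 6 mice were kept. For the test, log2(RPKM + 1) was fitted by limma 3.58.1 under R 4.3.3 (trend and robust settings, group as the only factor, all 12 mice in 1 fit, which shares the estimate of spread), with two-sided p-values adjusted by the Benjamini-Hochberg method. The alternatives were another pseudocount (0.1), 3 other filters, only the 2 groups, the replicate number as a block, each mouse left out, 3 other scalings, single transcripts, removal of trends along length and GC content, no trend or robust setting and, chosen after seeing the data, the pancreatic level as a covariate. The test was checked on simulated data.

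Each sample is called a mouse here, but neither the labels nor the methods of the study say that the 3 samples of a group are separate animals or come from 1 run of the experiment. P-values measure only the spread between these samples, which may be technical. The genes named are the 12 called genes with the largest increase and the 12 with the largest decrease, provided that the mice of the groups did not overlap and that a group had a mean of at least 1 RPKM, then from each list up to 5 called members by size of change and 3 members by RPKM, and the genes named in the study. The 40 gene lists were written from general knowledge, and the members and lists were chosen with earlier results of these data known. Gene positions and promoters are those of RefSeq on GRCm38.p6. Figures were drawn with matplotlib 3.10.9. A few genes that the lists count are not reported here by name.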

Additional observations from a re-analysis of the deposited data

How the results depend on the processing

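Between B+Con-FMT and Con-sa, 1142 genes were called, 295 higher and 847 lower. With each transcript on its own there were 164 calls, 67 higher and 97 lower; with equal totals outside globin 1845 calls, 1647 of them lower; and with median-of-ratios scaling 644 higher and 509 lower. When any single mouse was left out, the calls numbered 337 to 665, of which 86 to 223 were higher and 251 to 477 lower. The other settings stayed within 1.5 times of each count, among them the replicate number as a block, which gave 199 higher and 577 lower calls. The numbers were not taken to pair the mice, since deviations of same-numbered mice correlated at -0.06, 0.29 and 0.31. Replicates 2 and 3 of Con-sa correlated best with the B+Con-FMT mouse of their own number, and replicate 1 with replicate 3.

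Of 138 named genes that were called, 115 stayed called with median-of-ratios scaling, 110 with the pancreatic covariate, 101 with the block and 53 to 85 when any single mouse was left out, and none of them changed direction. Changes of sign were limited to genes that did not pass the test. The log2 fold change became -0.034 for Ccl21a, -0.043 for Ccr7, -0.14 for Ngfr, 0.038 for Ly6c1 and 0.046 for Vcam1 with the pancreatic covariate, 0.0017 for Vcam1 and 0.022 for Itgb1 with median-of-ratios scaling, -0.024 for Ccr7 with equal totals outside globin, and -0.0088 for Ccr7, 0.0086 for Itgb1 and 0.0098 for Mki67 without the trend along length and GC content. When any single mouse was left out it ranged from -0.087 to 0.011 for Itgb1, -0.12 to 0.048 for Vcam1, -0.061 to 0.090 for Ccr7, -0.018 to 0.42 for Ly6c2 and -0.024 to 0.095 for Ngfr. For 5 further lists, the counts without any single mouse were 1 to 4 (Trim30 and Trim12, lower), 0 to 3 (Toll-like receptor, lower), 2 to 4 (complement, lower), 2 to 5 (p53 pathway, higher) and 0 to 6 (respiratory chain, higher). With RPKM alone, no counting interval can be given.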

Other observations

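Some single genes outside the lists were noticed after their values were seen and are given as values, with no count over other genes of their kind. Besides Prg2 and Prg3, the eosinophil peroxidase gene Epx was at 0.60, 0.78 and 0.39 RPKM in Con-sa and 1.70, 1.28 and 2.15 RPKM in B+Con-FMT (adjusted p = 0.0162, limma), so that it passed the filter through B+Con-FMT alone. Rgs13, a gene known from germinal centre B cells, was at 6.50, 9.58 and 5.85 RPKM in Con-sa and 14.6, 19.5 and 13.6 RPKM in B+Con-FMT (log2 fold change 1.03, adjusted p = 0.0104) and Nuggc at 4.17, 4.84 and 3.72 RPKM in Con-sa and 6.38, 9.16 and 6.10 RPKM in B+Con-FMT (adjusted p = 0.0311). The groups did not overlap for these 3 genes. Star, the cholesterol carrier of mitochondria, was at 9.42, 8.90 and 7.68 RPKM in Con-sa and 5.04, 5.01 and 4.76 RPKM in B+Con-FMT (adjusted p = 0.000962) and Cyp21a1 at 4.73, 5.88 and 6.93 RPKM in Con-sa and 1.15, 4.23 and 2.10 RPKM in B+Con-FMT (adjusted p = 0.0303).

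Of the beta-globin genes, Hbb-bs and Hbb-bt varied widely between single mice. Hbb-bs was at 25330.5, 45902 and 20289.5 RPKM in Con-sa and 36.4, 20929.6 and 4024 RPKM in B+Con-FMT, at 30.5, 17.3 and 9.20 RPKM in B-sa and at 8916, 13234 and 10623 RPKM in B+A10-FMT. Hbb-bt was at 5653, 10095 and 4649.5 RPKM in Con-sa and 14.7, 4459 and 845 RPKM in B+Con-FMT. B+Con-FMT replicate 1 stood near the B-sa level and the other two far above it, so that the fold change between groups (-4.29 for Hbb-bs, adjusted p = 0.2) describes no typical mouse. Hbb-b1 went the other way, at 35832, 15053 and 37779.6 RPKM in Con-sa and 67197, 55802 and 61737 RPKM in B+Con-FMT without overlap (log2 fold change 1.17, adjusted p = 0.0611), and did not pass the test here, but was called up when B-sa was compared with Con-sa (adjusted p = 0.0215). The beta-globin genes are close copies of each other, and outbred mice can differ in the alleles they carry, so the division of reads between them is uncertain.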
